A study of Mus musculus with 64 samples.

Results

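The early response of wild-type (Ahr+/+) bone marrow-derived macrophages (BMMs) to heat-killed Salmonella Enteritidis (hk S.E.), a serovar of Salmonella enterica, was read from 8 of the 64 RNA-seq libraries of the series. They were chosen by their titles, as the 4 libraries of Ahr+/+ BMMs without AhR ligand that received hk S.E. for 3 h and the 4 libraries of Ahr+/+ BMMs without ligand and without activation at the same time. The whole series sets ligands of the aryl hydrocarbon receptor (AhR) against vehicle in Ahr+/+ and Ahr-/- BMMs at 3 h and 20 h, with 4 libraries in each of 16 groups. All 8 cultures came from female C57BL/6JRj mice of 8 to 12 weeks, with 4 mice per genotype. They were differentiated for 6 days in medium of the L929 fibroblast line, which supplies macrophage colony-stimulating factor (M-CSF), and received 0.01% DMSO as vehicle for 6 h before the activation step. The activated group then received 10000000 heat-killed bacteria per ml at 1000000 BMMs per ml, and the unactivated group received none. As a model these are cultured cells, more than 80% of which carried CD11b and F4/80, exposed to whole killed bacteria and not to a single bacterial product.

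Macrophages sense Gram-negative bacteria mainly through lipopolysaccharide (LPS), which is bound at the cell surface by CD14 and by the Toll-like receptor TLR4 with its partner MD-2, while other receptors bind lipoproteins, flagellin and nucleic acids. Adapters of the MyD88 branch release the transcription factor NF-kB from its inhibitors and start MAP kinase signalling, and adapters of the TRIF branch activate IRF3 and with it the transcription of interferon beta. Secreted interferon beta acts back on the same and on neighbouring cells through transcription factors of the STAT family, which turn on the interferon-stimulated genes.

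The 8 libraries held 15678717 to 30760778 counts on genes. Over the log2 CPM (counts per 1000000 after TMM normalization) of all genes tested, libraries of the same group correlated with r of 0.982 to 0.992 and libraries of different groups with r of 0.880 to 0.894. The identifiers of the libraries fall into 3 series, and only replicates 3 and 4 of the activated and replicates 1 and 3 of the unactivated group carry the series present in both. Within that series 2808 genes were higher and 3502 lower on activation. In unactivated replicate 4, 4.44% of read pairs were left uncounted for low alignment quality, against 1.19% to 2.02% in the other unactivated libraries. The sources do not say which library came from which mouse, so the p-values measure the spread between these libraries.

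All 7 macrophage markers on the list used here were measured. Together they took 33607 to 35310 of every 1000000 counts in unactivated and 23356 to 25705 in activated libraries. The sums in this paragraph use the plain total of counts. After TMM normalization, 2 of the 7 macrophage markers were called higher and 2 lower, against 24.2% and 32.3% of all genes tested, with a median log2 fold change of 0.16. The erythroid markers Hba-a1, Hbb-bs and Hbb-bt, the mast cell markers Mcpt4 and Fcer1a and the dendritic cell markers Xcr1 and Siglech had no count in any of the 8 libraries. Summed over each list, T and NK cell markers took 0.622 to 2.47 per 1000000 over both groups, and B cell markers 0.905 to 1.83 activated against 3.47 to 3.95 unactivated. The sums of 4 other lists were higher in every activated library. Neutrophil markers, 4 of 8 measured, took 71.9 to 167 per 1000000 activated against 16.9 to 46.4 unactivated, and the measured ones, S100a8, S100a9, Camp and Ltf, were each called higher. Osteoclast markers, 5 of 6 measured, took 44.3 to 61.4 against 29.4 to 32.6, and of these Acp5 was called higher. Endothelial markers, 3 of 4 measured, took 17.5 to 29.3 against 7.12 to 10.6, with Kdr and Cdh5 called higher. Stromal markers, 4 of 7 measured, took 5.61 to 10.2 against 0.780 to 1.15, with Pdgfrb called higher and the collagen genes Col1a1 and Col1a2 at 0.050 and 0.085 CPM on average in activated libraries. The part of these cell types in the results below was not tested. In RNA of whole cultures, fewer cells of a type and less RNA per cell cannot be told apart.

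Activation for 3 h changed most of the genes measured in these cells, with the largest changes upward. Most of the cytokine, chemokine, NF-kB and interferon-stimulated genes rose, some of them, such as Cxcl10, from near 0 to levels among the most abundant transcripts of the cell, and transcription factors and receptors of the unactivated macrophage such as Cebpa and Cxcr4 fell. Of 14537 genes tested, 3525 were called higher (24.2%) and 4697 lower (32.3%) by edgeR's quasi-likelihood test at an adjusted p below 0.01, together 56.6% of the genes tested. The falls were more numerous and the rises larger. A change of more than 4-fold was measured for 1107 genes upward and 1092 downward, of more than 10-fold for 535 and 261, of more than 100-fold for 97 and 6, and of more than 1000-fold for 18 and 0. The 4 activated libraries all lay above the 4 unactivated ones for 4013 genes and all below them for 5110, which included 3428 of the genes called higher and 4517 of those called lower.

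How many genes count as lower depends on what is held constant. TMM sets the bulk of genes near no change, with factors of 0.781 to 0.817 in activated and 1.24 to 1.31 in unactivated libraries and a median log2 fold change of -0.10 over all genes. Scaling to total counts alone, an alternative chosen after seeing the data, moved that median to -0.78 and gave 1806 genes higher and 8598 lower, so that 17.4% of calls were upward in place of 42.9%, and 938 genes called higher changed sign. Genes that rose by more than 10-fold took 17.0% to 18.6% of all counts in activated libraries and 0.693% to 0.798% in unactivated ones. All genes called higher together took 63.4% to 65.0% against 35.1% to 35.8%, and all called lower 6.46% to 6.84% against 19.8% to 20.3%.

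**Figure D1:**
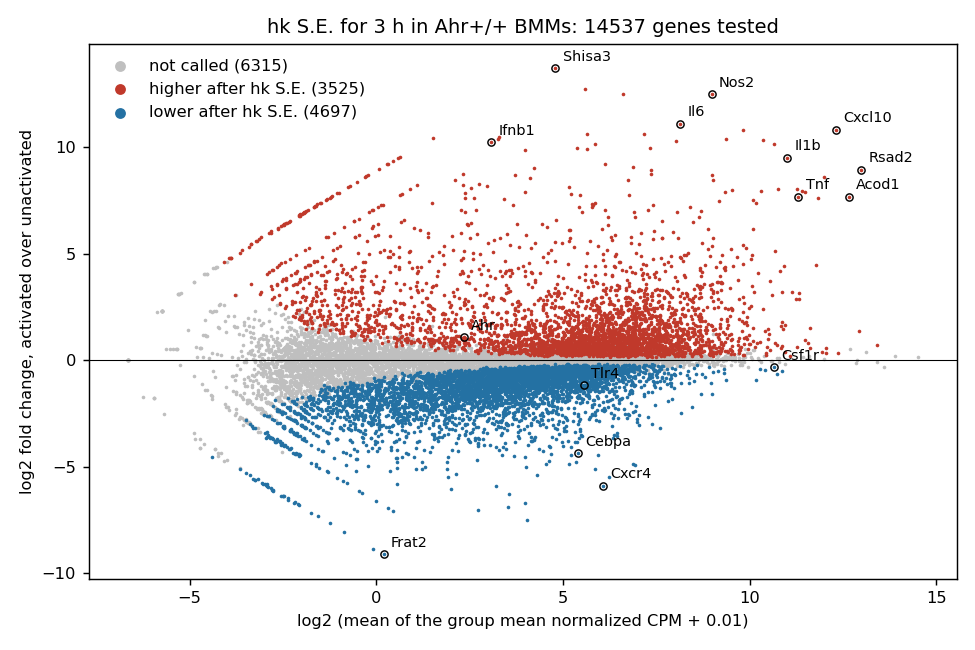
Log2 fold change of each of the 14537 genes tested on activation of Ahr+/+ BMMs with hk S.E. for 3 h (y axis) against the log2 of its mean CPM over both groups with 0.01 added (x axis), with genes called higher in red and lower in blue. The 3525 genes called higher reach further from 0 than the 4697 called lower, and 97 of them rose by more than 100-fold.

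The sequences just before the start sites of genes that carried the response are given next, since NF-kB and the interferon-activated factors bind short motifs there. They are from RefSeq promoters on GRCm38.p6, which span 250 bases before to 50 bases after each start and were found for 9630 of 12015 tested protein-coding genes (80.1%). Each line is a stretch on the strand of its gene, 5′ to 3′, with the match in capitals and a margin on each side. The first lines hold matches to the 10-base NF-kB consensus, searched on both strands, where overlapping matches appear as 1 run of capitals.
Nfkbia, chr12:55492648-55492696, minus strand: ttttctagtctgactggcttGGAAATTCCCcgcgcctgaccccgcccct
Cxcl1, chr5:90891154-90891204, plus strand: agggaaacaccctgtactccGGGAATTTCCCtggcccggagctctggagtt
Cxcl2, chr5:90903782-90903832, plus strand: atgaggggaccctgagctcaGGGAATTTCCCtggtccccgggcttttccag
Cxcl3, chr5:90786008-90786058, plus strand: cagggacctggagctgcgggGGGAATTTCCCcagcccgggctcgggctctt
Il6, chr5:30013050-30013099, plus strand: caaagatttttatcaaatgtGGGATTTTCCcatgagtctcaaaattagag
Ifnb1, chr4:88522881-88522930, minus strand: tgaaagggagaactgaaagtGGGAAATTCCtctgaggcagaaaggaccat

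The next lines hold matches to GAAA and GAAA separated by any 2 bases, or to the reverse complement, the core of the element that interferon-activated factors and IRFs bind, also searched on both strands.
Ifit1, chr19:34640765-34640833, plus strand: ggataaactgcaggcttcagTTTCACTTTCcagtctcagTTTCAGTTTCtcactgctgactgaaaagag
Rsad2, chr12:26456543-26456592, minus strand: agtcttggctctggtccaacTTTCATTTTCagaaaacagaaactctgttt
Cxcl10, chr5:92349073-92349122, minus strand: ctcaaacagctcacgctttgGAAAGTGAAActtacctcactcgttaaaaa

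The paired GAAA motif was found in 6.03% of the promoters of genes called higher, in 1.97% of those called lower and in 3.29% of all tested coding genes, against 3.49% of all genes of the RefSeq table. It was present in 25 of the 39 matched promoters of the list of 50 interferon-stimulated genes, whose matched share of 78% is too low for a statement on the list. The NF-kB consensus was found in 6.66% of promoters of genes called higher, 4.28% of those called lower, 5.12% of tested genes and 4.32% of all genes of the table. Of the list of NF-kB subunits and inhibitors, 9 of 19 matched promoters held it (47.4%). TATAAA, searched on the gene's strand only, was found in 6.23% of promoters of genes called higher and 3.11% of those called lower, against 4.33% of tested genes and 8.88% of all genes of the table. It was found in 14.7% of the 354 matched promoters of genes higher by more than 10-fold and in 9.33% of the 150 of genes lower by more than 10-fold. The matched shares of these sets, 76.1% and 73.9%, are also too low for a statement on them. A match describes the letters in this window and is neither a binding site nor a cause.

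The receptors and sensors of bacterial products changed in both directions, with Nod1, Nlrp3 and the lipoprotein receptors Tlr1 and Tlr2 up and the LPS receptor Tlr4 down. Of 22 sensors tested, 12 were called higher and 4 lower, against 24.2% and 32.3% of all genes tested, with a median log2 fold change of 1.19. Nod1, a cytosolic sensor of peptidoglycan, was at 166, 189, 144 and 160 CPM in activated replicates 1 to 4 and at 4.44 to 5.89 CPM in unactivated libraries, a log2 fold change of 4.97 ± 0.14 (SE, adjusted p = 1.3e-35). Clec4e, a lectin receptor, was at 3426 to 4108 against 161 to 185 CPM (log2 fold change 4.43 ± 0.30), and Nlrp3, the sensor of an inflammasome, at 1096 to 1391 against 60.5 to 68.8 CPM (4.23 ± 0.10). In all 3 genes the groups lay far apart.

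Cd14, the co-receptor that hands LPS to TLR4, was at 2890, 3008, 3315 and 2809 CPM activated and at 835, 978, 1012 and 996 CPM unactivated (log2 fold change 1.65 ± 0.13). Tlr4 itself was at 30.3, 31.7, 27.6 and 28.5 CPM activated and at 64.5, 89.1, 45.7 and 61.8 CPM unactivated. Each activated library thus lay below each unactivated one, and Tlr4 fell by 1.15 on the log2 scale (adjusted p = 0.00055 by edgeR's quasi-likelihood test). That call was lost in some of the other fits, where its adjusted p reached 0.046. Tlr5, the flagellin receptor, and Tlr13, a sensor of bacterial RNA, also fell, with log2 fold changes of -3.84 and -2.45, and so did the inflammasome gene Nlrc4 with -0.53, whereas Tlr1, Tlr2 and Tlr3 rose with 2.40, 3.64 and 3.65.

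Among the adapters and kinases that carry the signal inward, 13 of 21 were called higher and 3 lower, against 24.2% and 32.3% of all genes. Their median log2 fold change of 0.66 turned to -0.02 with total-count scaling. The rises were strongest in Ripk2, the kinase downstream of the NOD sensors, with 396 to 461 against 15.3 to 18.4 CPM (log2 fold change 4.64 ± 0.18). Map3k8, the kinase that feeds the ERK pathway, was at 123 to 136 against 10.1 to 13.4 CPM (3.38 ± 0.11), and Irak2 at 380 to 408 against 57.6 to 62.3 CPM (2.76 ± 0.07). Myd88 rose by a log2 fold change of 2.63, and Irak3, a brake on the same complex, by 2.44. Irak4 and Tab1 fell by 1.05 and by 1.67 on the log2 scale.

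All 22 tested genes of the NF-kB list were called higher, against 24.2% of all genes. This list, too, was chosen with earlier results of these data known, so the contrast is a description and not a test. In all 22 the 4 activated libraries lay above the 4 unactivated ones, against 4013 of all 14537 genes. Their median log2 fold change was 2.96, and 2.29 with total-count scaling, where 21 were called. The list holds the subunits and the proteins that shut the pathway off again, and both rose. Nfkb1 and Rel, which encode subunits, had log2 fold changes of 3.28 and 3.72, and Rela had 1.46. Nfkbia, which encodes the inhibitor IkB-alpha, was at 1171, 1217, 1276 and 1188 CPM activated and 52.7, 55.0, 74.8 and 60.8 CPM unactivated (4.32 ± 0.14, adjusted p = 7.9e-34). Nfkbiz, a nuclear member of the family, was at 892 to 1019 against 9.15 to 14.9 CPM (6.18 ± 0.12), Tnfaip3, the deubiquitinase A20, at 1749 to 2024 against 43.9 to 52.6 CPM (5.29 ± 0.10), and Traf1 at 600 to 683 against 16.8 to 23.7 CPM (5.02 ± 0.11). None of these genes had overlapping groups.

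The list of AP-1, EGR and ATF factors also holds transcription factors outside these families, among them Nr4a1, Nr4a3, Cebpd, Klf6 and Myc. Of its 25 genes, 10 were called higher (40%) and 8 lower (32%), against 24.2% and 32.3% of all genes. The median log2 fold change was 0.62, and -0.05 with total-count scaling. Nr4a3 was at 8.02 to 9.91 against 0.296 to 0.652 CPM (4.07 ± 0.33), Cebpd at 70.1 to 92.4 against 4.29 to 7.15 CPM (3.92 ± 0.31) and Maff at 15.7 to 17.9 against 0.949 to 1.73 CPM (3.88 ± 0.19). Batf, Klf6, Junb and Atf3 rose as well, with log2 fold changes of 3.05, 2.40, 2.15 and 1.92. On the other side, Nr4a1 was lower by a log2 fold change of -3.14, Egr3 by -2.48, Fosb by -2.45, Fos by -1.83 and Myc by -1.12.

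The phosphatases that switch off MAP kinases and the proteins that direct the decay of cytokine mRNAs also split. Of these, 8 of 19 were higher and 8 lower (42.1% each), against 24.2% and 32.3% of all genes. Their median of 0.45 turned to -0.22 with total-count scaling. Dusp2 was at 219 to 274 against 1.92 to 2.68 CPM (log2 fold change 6.73 ± 0.16). The 3 related decay factors of the Zfp36 family went in opposite directions. Zfp36, tristetraprolin, had a log2 fold change of 2.69, while Zfp36l2 was at 9.42 to 14.1 against 142 to 167 CPM (-3.65 ± 0.14) and Zfp36l1 at 5.34 to 7.41 against 68.7 to 92.5 CPM (-3.64 ± 0.18).

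Inflammatory cytokines showed some of the largest rises of all genes. Of 26 tested, 22 were called higher and 2 lower, Il16 and Vegfa, against 24.2% and 32.3% of all genes. The median log2 fold change of the 26 was 5.68, or 4.46 with genes without unactivated counts set at their lower bound. Tnf, the prototype inflammatory cytokine, was at 5262, 4676, 5413 and 4839 CPM in activated replicates 1 to 4 and at 20.6, 25.0, 24.8 and 27.8 CPM in unactivated ones (7.68 ± 0.16, adjusted p = 2.6e-42). Il1b was at 4080, 4170, 4488 and 3771 CPM against 3.90, 7.08, 5.52 and 5.69 CPM (9.52 ± 0.38), and Il1a, its alarmin relative, at 1539 to 1962 against 0.690 to 1.71 CPM (10.82 ± 0.32). Both genes of interleukin 1 were thus nearly silent before activation.

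Il6 was at 599, 607, 567 and 492 CPM activated and at 0.243, 0.100, 0.592 and 0.190 CPM unactivated, where all 4 libraries together held 25 counts (log2 fold change 11.12 ± 0.41). The subunit genes of interleukins 12, 23 and 27, cytokines that act on T and NK cells, rose too. Il12b, the subunit that interleukins 12 and 23 share, was at 90.3, 67.5, 90.6 and 80.5 CPM against 0.0974, 0.100, 0 and 0.0949 CPM (9.96 ± 0.47). Il12a had 355 counts over the activated and none over the unactivated libraries, which makes it at least 195-fold higher against a floor of 3 counts over the group. Il23a and Il27 had log2 fold changes of 7.86 and 10.29.

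Il10, the main anti-inflammatory cytokine of macrophages, was at 9.70, 16.1, 10.7 and 7.24 CPM activated against 0.584, 0.677, 0.592 and 0.474 CPM unactivated (4.20 ± 0.37, adjusted p = 4.6e-15). Its groups did not overlap. The interleukin 1 receptor antagonist Il1rn had a log2 fold change of 4.40. Tgfb1, another restraining cytokine, had -0.13 and did not pass the test.

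Growth factor genes were raised, while the receptor for M-CSF was slightly lowered. Of 9 colony-stimulating factors and their receptors, 6 were called higher and 1 lower, against 24.2% and 32.3% of all genes. Their median of 0.62 turned to -0.05 with total-count scaling. Csf3, granulocyte colony-stimulating factor, was at 1.87 to 3.09 CPM activated and without a count unactivated, at least 84.5-fold higher, and Csf2 was at 0.346 to 0.914 CPM against none, at least 20.3-fold higher. Il34, a second ligand of the M-CSF receptor, was at 0.211 to 1.59 CPM with 62 counts against 2, a ratio of 51.0 with a 95% counting interval of 13.5 to 431. Csf1r was at 1337, 1530, 1525 and 1419 CPM against 1628, 1832, 1929 and 1779 CPM (-0.30 ± 0.09, adjusted p = 0.0029 by edgeR's quasi-likelihood test). Its groups did not overlap, but other fits raised its adjusted p to as much as 0.069, and the call of Csf2 was also lost in some of them.

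**Figure D2:**
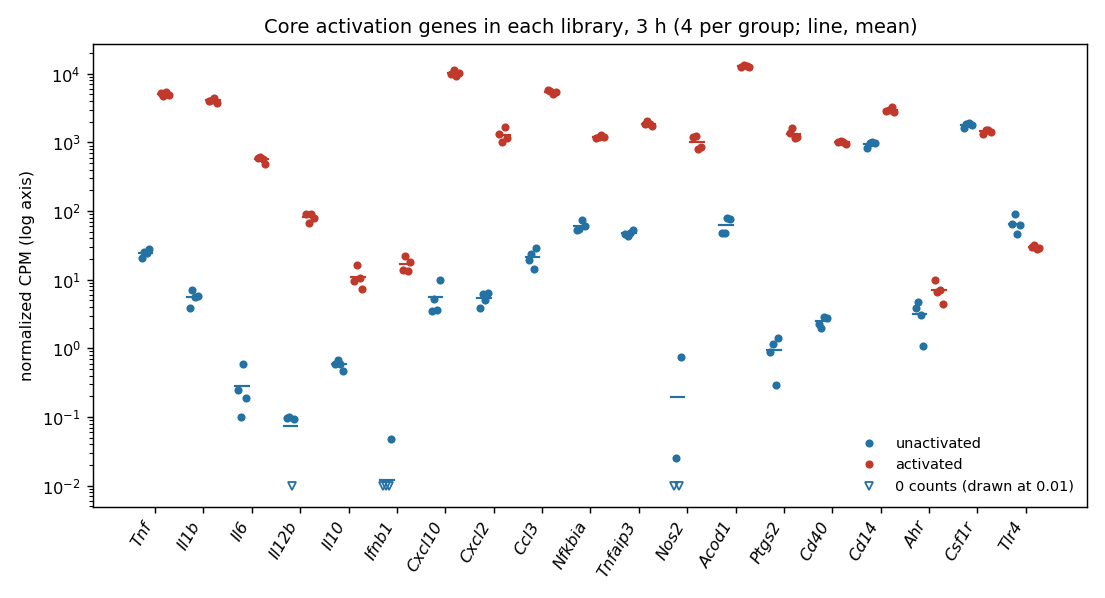
CPM of 19 genes of the response, chosen by name, in each of the 8 libraries (log axis, red for activated, blue for unactivated, lines for group means, open triangles at 0.01 for libraries without a count). Tnf lies between 4676 and 5413 CPM activated and between 20.6 and 27.8 unactivated, while Csf1r, Tlr4 and Ahr show the small differences of the set.

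Chemokines for monocytes, neutrophils and T cells rose together. Of 12 CC chemokines 10 were called higher and 0 lower, with a median log2 fold change of 6.41 (5.99 with lower bounds). Of 12 CXC and CX3C chemokines 9 were higher and 1, Cxcl14, lower, with a median of 7.22 (6.08 with lower bounds). Over all genes, 24.2% were higher and 32.3% lower. Ccl3 was at 5722, 5610, 5034 and 5378 CPM against 19.0, 23.7, 14.5 and 29.3 CPM (7.97 ± 0.24), Ccl4 at 4483 to 5250 against 10.6 to 25.1 CPM (8.04 ± 0.21) and Ccl5 at 2404 to 2768 against 8.91 to 13.5 CPM (7.94 ± 0.29). Per length of transcript, Ccl4 reached 7408 RPKM and rank 3 among all tested genes in activated cells, from 28.0 RPKM and rank 1322, and Ccl3 rank 4 from rank 1311. Both genes thus joined the most abundant transcripts within 3 h.

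Of the neutrophil chemokines, Cxcl2 was at 1329, 1003, 1695 and 1168 CPM activated and 3.85, 6.20, 4.98 and 6.40 CPM unactivated (7.91 ± 0.29). Its neighbours Cxcl1 and Cxcl3, named after their values were seen, were at 214 to 517 against 0.487 to 1.04 CPM (8.73 ± 0.50) and 188 to 350 against 0.243 to 0.937 CPM (9.10 ± 0.50). Activated replicate 3 was the highest library for all 3 genes. The promoter stretches of Cxcl1, Cxcl2 and Cxcl3 printed above share the run GGGAATTTCCC.

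Cxcl10, Cxcl9 and Cxcl11, genes of the ligand family of CXCR3, a receptor of T and NK cells, had the largest fitted rises among chemokines. The annotation lists Cxcl11 as a polymorphic pseudogene, so its transcript need not give a protein in these mice. Cxcl10 was at 9922, 11178, 9290 and 10196 CPM activated and 3.51, 5.24, 3.65 and 9.77 CPM unactivated (10.84 ± 0.45, adjusted p = 1.4e-28), and per length of transcript it moved from rank 8176 to rank 8. Cxcl9 was at 204 to 425 against 0 to 0.474 CPM (10.63 ± 0.70). Cxcl11 had 6085 counts activated and 1 unactivated, a ratio of 10016 with a 95% counting interval of 1797 to 395663. Cxcl9, Cxcl10 and Cxcl11 lie next to each other on chromosome 5 (GRCm38, 92284010 to 92435219, the span with the flanking Sdad1 and Nup54).

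Of 15 chemokine receptors 7 were higher and 4 lower, against 24.2% and 32.3% of all genes, with a median of 0.06 that was -0.61 with total-count scaling. Cxcr4, which holds cells in the bone marrow, was at 1.76, 1.92, 3.18 and 2.13 CPM activated and at 135, 130, 137 and 127 CPM unactivated, and so fell by 5.88 ± 0.18 on the log2 scale (adjusted p = 1.0e-34). The fractalkine receptor Cx3cr1 and the monocyte receptor Ccr2 also fell, by 2.40 and by 1.78. In contrast, Ccrl2, a receptor that binds chemerin, was at 665 to 758 against 6.56 to 8.72 CPM (6.50 ± 0.22), and Fpr2, a receptor of formylated bacterial peptides, at 125 to 151 against 3.31 to 4.72 CPM (5.20 ± 0.35).

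Interferon beta was induced, and all 50 genes of the interferon-stimulated list rose as well. Ifnb1 was at 13.8, 22.3, 13.2 and 17.8 CPM activated and at 0, 0, 0 and 0.0474 CPM unactivated, that is 1058 counts against 1, a ratio of 1741 with a 95% counting interval of 312 to 68847. The receptor genes Ifnar1 and Ifnar2 were at 428 to 502 against 169 to 200 CPM (log2 fold change 1.35 ± 0.07) and 219 to 256 against 99.3 to 111 CPM (1.17 ± 0.07). None of the interferon alpha genes on the list, nor Ifng, passed the filter on low counts.

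All 50 genes of the interferon-stimulated list were called higher, against 24.2% of all genes. The list was chosen with earlier results of these data known, so this contrast is a description and not a test. In all 50 the activated libraries lay above the unactivated ones, against 4013 of all 14537 genes. Their median log2 fold change was 4.48, and it was 3.80 with all 50 still called with total-count scaling. Together these 50 genes took 6.42% ± 0.549 (SD, n = 4) of all counts in activated and 0.319% ± 0.0560 (SD, n = 4) in unactivated libraries. Rsad2, the antiviral enzyme viperin, was at 16501, 18411, 13750 and 15988 CPM against 30.1, 44.9, 20.3 and 34.7 CPM (8.95 ± 0.56). Gbp5, a guanylate-binding protein that acts on intracellular bacteria, was at 2391 to 2965 against 1.04 to 3.32 CPM (10.35 ± 0.34), and the immunity-related GTPase Iigp1 at 188 to 439 against 0.345 to 1.15 CPM (8.92 ± 0.76). In Rsad2, Ifit1 and Iigp1, activated replicate 2 was the highest and activated replicate 3 the lowest of the activated libraries.

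These genes often lay side by side in the genome. Runs of neighbouring tested genes that all rose by more than 1 on the log2 scale, described after the values were seen, included 10 genes from Irgm1 to Ifi47 on chromosome 11 (GRCm38, 48861968 to 49135387). The 6 genes from Ifit2 to Ifit1 on chromosome 19 (34550694 to 34650009) had log2 fold changes of 4.96 to 7.91, and the 6 from Gbp8 to Gbp11 on chromosome 5 (105014150 to 105346472) had 1.26 to 9.20. All 10 tested Gbp genes, grouped by symbol after the values were seen, were called higher, against 24.2% of all genes, with a median of 7.37. Because members of these families resemble each other, the split of reads between them is uncertain.

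Of the STAT, JAK, SOCS and IRF genes that carry and restrain cytokine signals, 18 of 26 were higher and 2 lower, Stat6 and Socs5. Their median was 1.39, and of all genes 24.2% were higher and 32.3% lower. The feedback inhibitors rose most. Socs3 was at 1401 to 1612 against 4.19 to 7.45 CPM (8.01 ± 0.21), Socs1 at 161 to 268 against 0.487 to 0.740 CPM (8.47 ± 0.34) and Cish at 63.2 to 73.5 against 0.474 to 1.23 CPM (6.12 ± 0.35). Among the transducers, Jak2 had a log2 fold change of 4.46, Stat5a 3.21 and Stat2 2.94, and among the interferon regulatory factors Irf1 had 5.22 and Irf5 1.15, while Irf3 had -0.46 and did not pass the test.

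**Figure D3:**
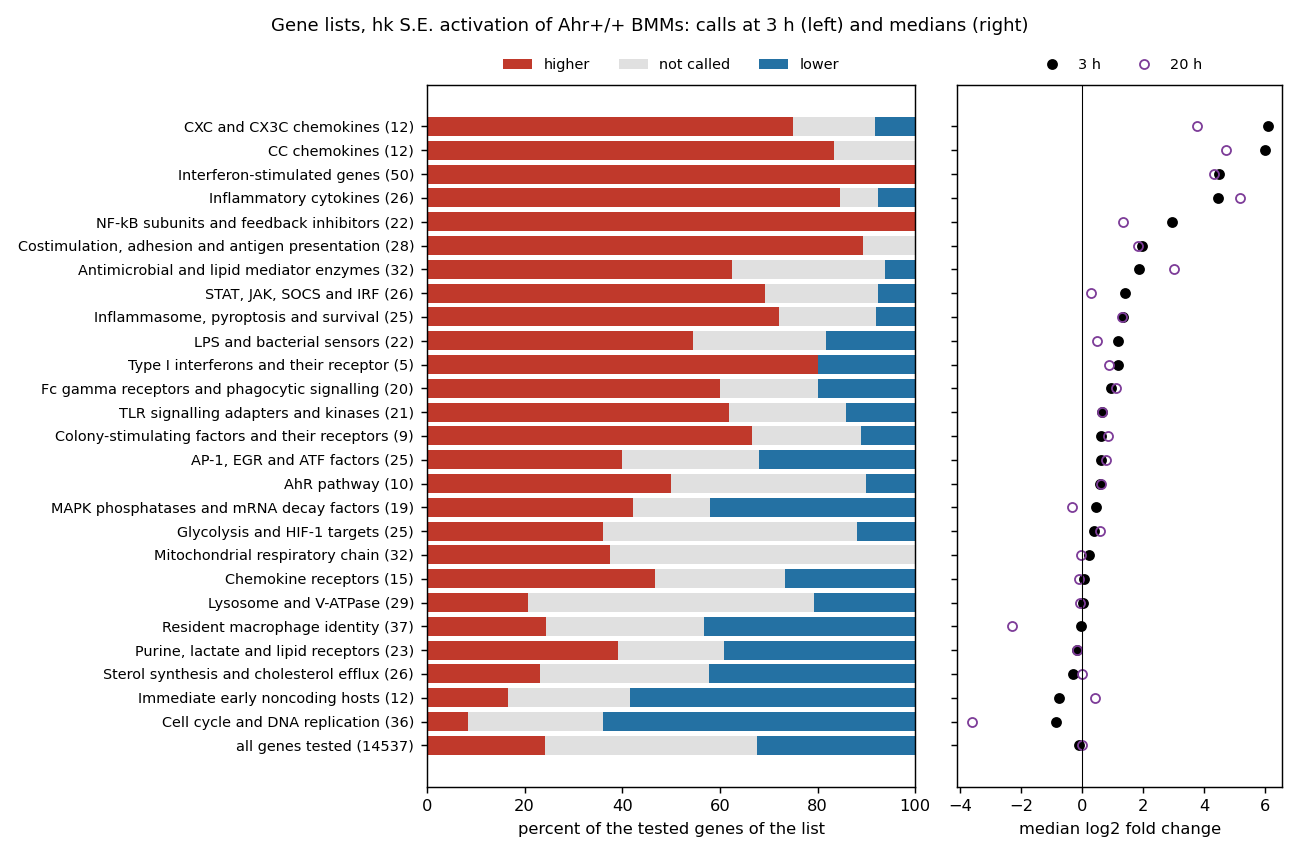
Left, percent of the tested genes of each of the 26 lists, and of all genes, called higher, lower or neither at 3 h. Right, the median log2 fold change of each list at 3 h (filled) and 20 h (open). Genes without counts in 1 group stand at their bound at 3 h but at their fitted change at 20 h, so the points are not like for like. By fitted change alone, the median of inflammatory cytokines was 5.68 at 3 h and 5.16 at 20 h, against 4.46 at 3 h with bounds. All genes of the NF-kB and interferon-stimulated lists are higher, CXC chemokines have the highest 3 h median of 6.08 and cell cycle genes the lowest of -0.86.

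Enzymes that make antimicrobial and lipid mediators rose in 20 of 32 cases and fell in 2, Ptgs1 and Hmox1, against 24.2% and 32.3% of all genes. Their median was 1.86. Nos2, which makes nitric oxide, was at 1180, 1245, 791 and 843 CPM activated and at 0, 0.0251, 0 and 0.759 CPM unactivated, where replicate 4 held nearly all of its 17 counts (12.51 ± 0.53, adjusted p = 4.6e-28). Acod1, which makes itaconate, was at 12408, 13425, 12775 and 12719 CPM against 48.0, 47.7, 78.4 and 75.3 CPM (7.69 ± 0.26). Ptgs2, the inducible cyclooxygenase, was at 1357, 1601, 1144 and 1192 CPM against 0.876, 1.15, 0.296 and 1.42 CPM (10.41 ± 0.32), while its constitutive relative Ptgs1 had a log2 fold change of -1.26.

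Hdc, which makes histamine, was at 31.6 to 40.1 against 0 to 0.195 CPM (8.55 ± 0.40). Ptges, which acts after cyclooxygenase in the synthesis of prostaglandin E, and Ch25h, which makes an oxysterol, had log2 fold changes of 5.50 and 7.38. The arginine transporter Slc7a2 and the cofactor enzyme Gch1, both needed for nitric oxide synthesis, had 6.71 and 3.39. Arg1, the enzyme that competes for arginine, had -0.59 and did not pass the test.

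Surface molecules for contact with lymphocytes rose as a group. Of 28 genes of costimulation, adhesion and antigen presentation, 25 were higher and 0 lower, against 24.2% and 32.3% of all genes. Their median was 1.97. Cd40 was at 1018, 1034, 1017 and 963 CPM against 2.29, 1.98, 2.81 and 2.80 CPM (8.69 ± 0.22, adjusted p = 1.1e-38), with the 4 libraries of each group close together. Cd69, an early activation antigen, was at 2919 to 3539 against 2.09 to 3.36 CPM (10.18 ± 0.28). Vcam1, an adhesion molecule, was at 64.2 to 82.5 against 0.0753 to 0.542 CPM (8.13 ± 0.29). Cd274, the checkpoint ligand PD-L1, had 4.87, the costimulators Cd86 and Cd80 had 1.48 and 1.42, and the class II gene H2-Ab1 had 2.01.

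Genes of inflammasomes, cell death and survival were higher in 18 of 25 cases and lower in 2, against 24.2% and 32.3% of all genes. Their median was 1.33. The survival genes Bcl2a1a and Bcl2a1d were at 114 to 144 against 0.779 to 2.56 CPM (6.19 ± 0.19) and 464 to 502 against 6.51 to 9.49 CPM (6.03 ± 0.13), although near-identical copies make the split of reads between them uncertain. Gadd45b was at 283 to 292 against 10.1 to 14.9 CPM (4.50 ± 0.23). Casp4, the caspase that binds LPS in the cytosol, had a log2 fold change of 3.91, Casp1 had 2.53 and Gsdmd, the pore former they cleave, had 1.30. Bcl2 and Pmaip1 fell by 1.71 and by 1.36.

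Of 37 resident macrophage genes, 9 were higher (24.3%) and 16 lower (43.2%), against 24.2% and 32.3% of all genes, with a median of -0.02 that was -0.70 with total-count scaling. Cebpa, a transcription factor of the myeloid lineage, was at 4.15, 2.49, 5.88 and 3.36 CPM activated against 85.7, 68.2, 88.8 and 79.0 CPM unactivated (-4.35 ± 0.20, adjusted p = 2.0e-26). The iron exporter Slc40a1, the lipid regulator Pparg and the lysophosphatidylserine receptor Gpr34 also fell, by 2.66, by 2.43 and by 2.31. Against these, Tfec, a relative of the lysosomal regulators, had a mean of 117 ± 5.17 activated against 15.1 ± 1.71 CPM unactivated (SD, n = 4), a log2 fold change of 2.96 ± 0.15. C1qa, C1qb, C1qc, Apoe and Mrc1 had log2 fold changes between -0.08 and 0.23 and did not pass the test.

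Of 20 genes of Fc gamma receptors and phagocytic signalling, 12 were higher and 4 lower, against 24.2% and 32.3% of all genes. Their median was 0.95. The adapter Lcp2 was at 865 to 965 against 74.1 to 83.0 CPM (3.53 ± 0.08), and the inhibitory receptor Fcgr2b at 449 to 522 against 44.3 to 58.6 CPM (3.33 ± 0.17). Inpp5d, which encodes the phosphatase SHIP1, was at 33.2 to 42.1 against 278 to 328 CPM (-2.97 ± 0.12).

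Genes of the cell cycle fell in 23 of 36 cases and rose in 3, against 32.3% lower among all genes, with a median of -0.86. The falls were led by E2f2, a transcription factor of the G1 to S transition, at 1.11 to 1.49 against 27.1 to 32.2 CPM (-4.55 ± 0.21), and by Ung, a DNA repair enzyme, at 0.211 to 0.711 against 3.06 to 5.08 CPM (-3.05 ± 0.35). Ccnd2, a G1 cyclin, went the other way, at a mean of 256 ± 43.0 against 5.74 ± 1.64 CPM (SD, n = 4), a log2 fold change of 5.45 ± 0.24, as did the inhibitor Cdkn1a with 2.97. Mki67, the common marker of dividing cells, was at 118 to 155 against 99.0 to 174 CPM, so the groups overlapped and no difference was called (-0.07 ± 0.18).

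Metabolic genes changed less, and the direction of several lists depends on scaling. Of 25 genes of glycolysis and HIF-1 targets, 9 were higher (36%) and 3 lower (12%), against 24.2% and 32.3% of all genes. Their median of 0.40 turned to -0.27 with total-count scaling. Pfkfb3, which makes the activator of phosphofructokinase, was at 169 to 230 against 26.2 to 28.5 CPM (2.76 ± 0.21), Hk2, a hexokinase, at 229 to 276 against 40.5 to 43.7 CPM (2.54 ± 0.12), and Adm, a peptide hormone and HIF-1 target, had 75 counts against none, at least 41.1-fold higher. Gapdh and Pkm, abundant enzymes of the same pathway, had 0.24 and -0.07 and did not pass the test.

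Sterol genes were higher in 6 of 26 cases (23.1%) and lower in 11 (42.3%), against 24.2% and 32.3% of all genes, with a median of -0.31. With total-count scaling 3 were higher and 20 lower, with a median of -0.98. The synthesis enzymes Dhcr7 and Mvd were at 3.18 to 4.98 against 14.3 to 16.4 CPM (-1.85 ± 0.18) and 1.70 to 3.37 against 6.18 to 9.57 CPM (-1.43 ± 0.22).

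Of 32 respiratory chain genes, 12 were higher (37.5%) and 0 lower, against 24.2% and 32.3% of all genes. Their median was 0.22, a direction that turned with total-count scaling, where the median was -0.46 and 1 was higher and 24 lower. Cycs, cytochrome c, was at 117 to 136 against 35.1 to 39.9 CPM (1.70 ± 0.16). Cox5a and Uqcrfs1 had 0.65 ± 0.10 and 0.54 ± 0.06, and both changed sign with total-count scaling.

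Among 29 lysosome genes, 6 were higher and 6 lower (20.7% each), both below the 24.2% and 32.3% of all genes, with a median of 0.03. With total-count scaling 1 was higher and 24 lower, with a median of -0.64. Tfeb, the transcription factor that drives lysosomal genes, was at 1.24 to 3.81 against 29.3 to 39.5 CPM (-3.76 ± 0.24). Sqstm1, an autophagy receptor, was at 2260 to 3320 against 715 to 1233 CPM (1.61 ± 0.15), and Atp6v0d2, a subunit of the proton pump, at 13.4 to 18.9 against 20.7 to 32.3 CPM (-0.83 ± 0.26, adjusted p = 0.0039 by edgeR's quasi-likelihood test, a call lost in some other fits).

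**Figure D4:**
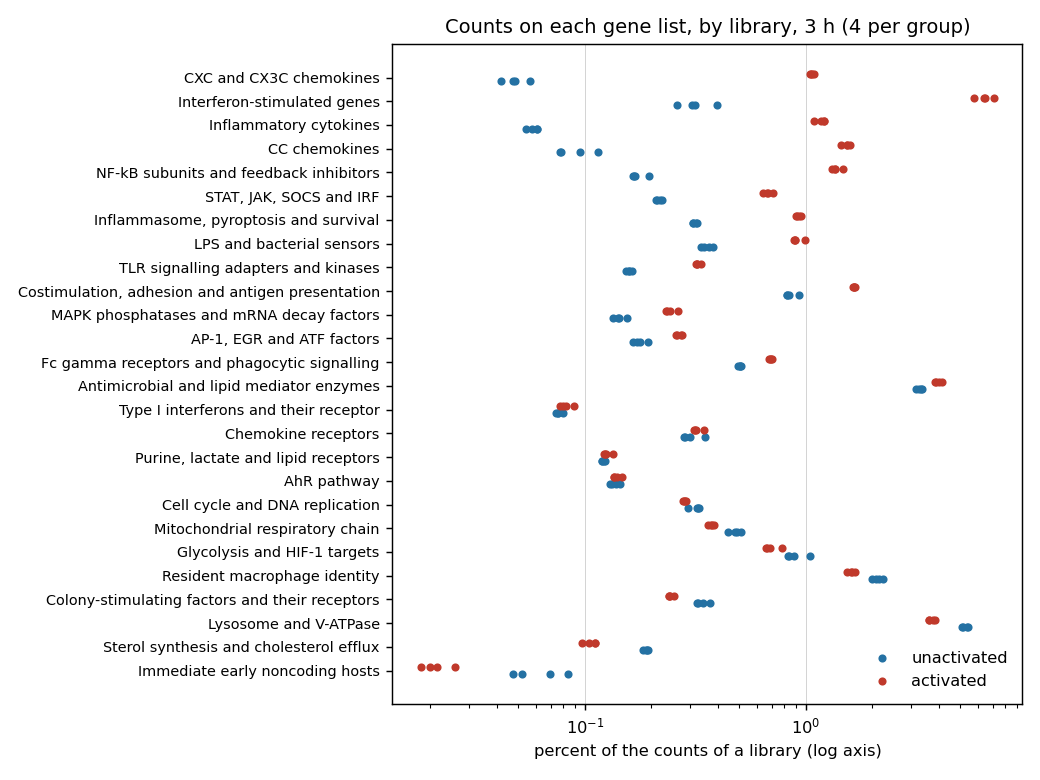
Percent of all counts of a library taken by each of the 26 gene lists (log axis), with activated libraries as red and unactivated ones as blue points. The interferon-stimulated list takes 5.75% to 7.09% activated and 0.260% to 0.395% unactivated, and 14 lists lie higher, 8 lower and 4 overlap.

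As shares of all counts, 14 of the 26 lists were higher in all activated libraries, 8 were lower and 4 overlapped between the groups. NF-kB genes took 1.38% ± 0.0658 (SD, n = 4) activated and 0.174% ± 0.0138 (SD, n = 4) unactivated, and CC chemokines 1.52% ± 0.0607 and 0.0915% ± 0.0176. The lysosome list took 3.72% ± 0.119 against 5.25% ± 0.157 and the resident macrophage list 1.61% ± 0.0565 against 2.11% ± 0.105. The overlapping lists were chemokine receptors, type I interferons and their receptor, the AhR pathway and purine, lactate and lipid receptors. For colony-stimulating factors, glycolysis, respiratory chain and lysosome, the share fell while the median log2 fold change was above 0.

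The AhR pathway bears on the series as a whole, and parts of it moved with activation in the absence of added ligand. Of 10 genes tested, 5 were higher and 1 lower, against 24.2% and 32.3% of all genes. Their median of 0.58 turned to -0.10 with total-count scaling. Ahr itself was low, at 9.77, 6.67, 7.13 and 4.46 CPM activated and 3.90, 4.67, 3.01 and 1.09 CPM unactivated. The groups overlapped, since activated replicate 4 lay below unactivated replicate 2, and the call of a log2 fold change of 1.11 ± 0.22 (adjusted p = 1.7e-05 by edgeR's quasi-likelihood test) was lost in some other fits, with an adjusted p of up to 0.076.

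Tiparp, an AhR target and repressor, was at 369 to 461 against 14.4 to 20.8 CPM (4.51 ± 0.30). Ahrr, the AhR repressor, went the other way, at 0.346 to 0.582 against 2.42 to 3.79 CPM (-2.62 ± 0.26). Ido2, a tryptophan-degrading enzyme, had 114 counts against 2, a ratio of 93.8 with a 95% counting interval of 25.4 to 784. Cyp1a1, Cyp1a2 and Cyp1b1, the classical AhR targets, did not pass the filter on low counts.

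Receptors for purines, lactate and lipids were higher in 9 of 23 cases and lower in 9 (39.1% each), against 24.2% and 32.3% of all genes. Their median was -0.17. The adenosine receptor Adora2a was at 72.0 to 78.0 against 0.146 to 0.474 CPM (7.83 ± 0.20) and the nicotinic acid receptor Hcar2 at 98.5 to 115 against 0.427 to 1.14 CPM (7.22 ± 0.29). Gpr183, a receptor for oxysterols, was at 1.16 to 2.43 against 40.9 to 51.8 CPM (-4.73 ± 0.23).

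Among 12 noncoding and microRNA host genes, 2 were higher (16.7%) and 7 lower (58.3%), against 24.2% and 32.3% of all genes, with a median of -0.75. Mir155hg, the host gene of miR-155, was at 25.4, 23.5, 25.8 and 29.2 CPM activated and 0.0487, 0.0502, 0 and 0.142 CPM unactivated (8.69 ± 0.51), and Ptgs2os2, a noncoding neighbour opposite Ptgs2 that was counted by strand, at 7.27 to 11.4 against 0 to 0.237 CPM (5.98 ± 0.41). Neat1, a nuclear RNA, was at 50.1 to 107 against 207 to 435 CPM (-2.10 ± 0.27). The mature miRNA itself was not measured in these libraries. Its sequence in RefSeq (GRCm38.p6, chr16:84714143-84714165, plus strand) is shown because its host gene carried the largest rise of the list, with the seed, bases 2 to 8, in capitals.
mmu-miR-155-5p: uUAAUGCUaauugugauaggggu

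Over all genes, the 10 largest rises by fitted change with at least 1 CPM were Shisa3, Cxcl11, Nos2, Edn1, Il6, Cxcl10, Il1a, Serpina3f, Cxcl9 and U90926. Shisa3, an inhibitor of Wnt and FGF receptor maturation, was at 45.1, 45.4, 78.0 and 53.7 CPM and without a count unactivated, at least 1865-fold higher. Edn1, the precursor of endothelin-1, was at 204, 214, 151 and 208 CPM against 3 counts, a ratio of 6622 with a 95% counting interval of 2265 to 32114. Serpina3f, a serine protease inhibitor, was at 69.2 to 125 against 0 to 0.142 CPM (10.64 ± 0.71), and U90926 at 16.6 to 24.5 CPM had 1227 counts against 1.

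Of the 97 genes that rose by more than 100-fold, traces in unactivated libraries were uneven. Unactivated replicate 2 was the highest of the group for 43 of them and replicate 4 for 27, and their median level was 0.17% to 0.32% of the activated mean in the 4 libraries. The source of these counts was not tested.

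The 10 largest falls by fitted change with at least 1 CPM were Frat2, Gm15513, Zfp791, Zfp395, Frat1, Angptl4, AC122442.1, Bmf, Cnr2 and D930048N14Rik. Frat2, which with Frat1 binds GSK3 in Wnt signalling, was at 2.53, 2.41, 2.12 and 2.04 CPM unactivated and without a count activated, at least 47.4-fold lower, and Gm15513 and Zfp791 were likewise without a count and at least 41.7-fold and 23.9-fold lower. The place of these 3 genes in the order depends on the prior count, since none of them is among the 6 genes lower by more than 100-fold when bounds are used. Frat1 had 1 count against 281. Zfp395 was at 0.0703 to 0.323 against 30.0 to 36.0 CPM (-7.50 ± 0.39), Bmf, a pro-apoptotic protein, at 0.129 to 0.277 against 20.3 to 27.8 CPM (-6.86 ± 0.28), and Cnr2, the cannabinoid receptor of immune cells, at 0.170 to 0.415 against 27.6 to 33.2 CPM (-6.71 ± 0.26). Angptl4, a lipase inhibitor and target of PPAR, was at 0 to 0.194 against 10.5 to 15.3 CPM (-7.02 ± 0.47).

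Zinc finger genes were frequent among the falls when genes were grouped by the start of their symbol, a grouping made after the values were seen. Of 337 tested Zfp genes, 197 were lower (58.5%) and 32 higher, with a median of -0.91, against 32.3% lower over all genes. Kif genes, which encode kinesins, were lower in 19 of 30 cases and Snhg genes, hosts of small nucleolar RNAs, in 8 of 11. Of 225 genes of ribosomal proteins and their pseudogenes (Rpl and Rps), 24 were higher (10.7%) and 1 lower (0.444%), against 24.2% and 32.3% of all genes.

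The genes called higher and lower also differed in level and make-up. Among coding genes, the median level before activation was 34.5 CPM for genes called higher and 15.8 CPM for genes called lower, but 0.668 CPM for those that rose by more than 10-fold. The median number of exon blocks was 10 in genes called higher and in those called lower. It was 7 both in those that rose and in those that fell by more than 10-fold. The median gene span of these was 18677 bases for the rises and 21305 for the falls, against 23538 over all tested coding genes. Long noncoding RNAs made up 153 of the 3525 genes called higher and 340 of the 4697 called lower, against 1017 of the 14537 genes tested. Their share was thus below that of all genes among the rises and near it among the falls.

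How much of the 3 h response belongs to the early time was tested as the interaction of activation with time in Ahr+/+ BMMs, with the 4 activated and 4 unactivated libraries at 20 h, which have their own controls. Most genes raised early were still raised at 20 h, NF-kB genes were mostly stronger early, and genes of the cell cycle were lower in larger number and to lower values late. The change differed between 3 h and 20 h for 6950 genes (47.8%), in 3101 toward higher and in 3849 toward lower values at 3 h. Of the genes called higher at 3 h, 1543 were stronger at 3 h, 388 were weaker or opposite and 1594 were not called different. The same numbers for genes called lower were 2508, 530 and 1659. At 20 h, 4347 genes were higher (29.9%) and 4173 lower (28.7%), which included 62.3% of the early higher and 48.4% of the early lower genes, while 10.5% and 15.2% were called in the opposite direction. Unactivated replicate 4 at 20 h held 233047331 counts, against 21347014 to 24423183 in the other libraries of its group.

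**Figure D5:**
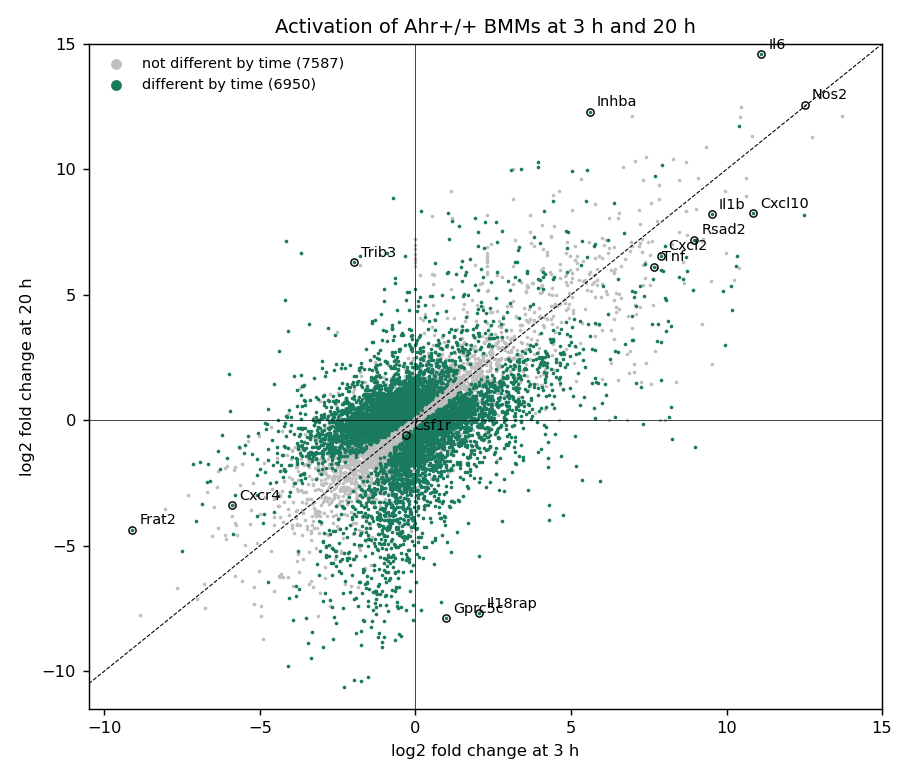
Log2 fold change on activation at 20 h (y axis) against that at 3 h (x axis) in Ahr+/+ BMMs for the genes tested, with the genes whose change differed between the times in green and the others in grey. The 6950 differing genes lie away from the dashed line of equal change, and 371 genes called higher at 3 h were called lower at 20 h.

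Of all 3525 genes called higher at 3 h, 1543 were stronger at 3 h and 388 weaker or opposite. Among the lists, 17 of 22 NF-kB genes were stronger at 3 h and none weaker, with medians of 2.96 at 3 h and 1.33 at 20 h. Tnf was at 1024 to 1567 CPM in activated libraries at 20 h and Cxcl10 at 451 to 755 CPM, both below all activated libraries at 3 h. Cd69 was at 44.9 to 51.8 CPM at 20 h. All 50 genes of the interferon-stimulated list were higher at both times, with medians of 4.48 and 4.32. Of these, 21 were stronger at 3 h, a share near that of all genes called higher, and 10 were weaker.

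In the other direction, 14 of 32 antimicrobial and lipid mediator genes were weaker at 3 h and 2 stronger, with medians of 1.86 at 3 h and 3.00 at 20 h. Over all genes, 388 were weaker or opposite and 1543 stronger of the 3525 called higher. Of the 4697 called lower, 530 were weaker or opposite and 2508 stronger. Lcn2, an iron-siderophore binding protein, named after its values were seen, was at 1819 to 2398 CPM at 20 h and had a log2 fold change of 3.95 at 3 h. Cell cycle genes had a median of -0.86 at 3 h and -3.62 at 20 h, where 30 of 36 were lower, and resident macrophage genes one of -0.02 and -2.30, with 28 of 37 lower at 20 h. Of all genes tested, 28.7% were lower at 20 h. Mki67, which did not differ at 3 h, was at 14.1 to 18.4 CPM activated and 244 to 294 CPM unactivated at 20 h.

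By fitted change, the largest differences toward 3 h were in Ifi202b, Il18rap, Tmem200b, Gprc5c and Nptx1. Ifi202b, an interferon-inducible gene, was at 1.80 to 2.49 CPM activated at 3 h without a count unactivated, and at 0 to 0.0374 CPM activated at 20 h. Tmem200b was at 3.79 to 4.50 against 0 to 0.0493 CPM at 3 h and at 0 to 0.0426 CPM activated at 20 h. Both genes were near 0 at 20 h, and both differences rest on the deep unactivated replicate 4 of that time. Without it, the adjusted p was 1.00 for Ifi202b and 0.96 for Tmem200b by edgeR's quasi-likelihood test. Il18rap, a chain of the interleukin 18 receptor, rose at 3 h from 1.82 to 2.63 CPM to 6.16 to 14.6 CPM, but at 20 h was at 0 to 0.0449 CPM activated against 3.00 to 5.08 CPM unactivated.

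By fitted change, the largest differences toward 20 h were in Trib3, B430319F04Rik, D930019O06Rik, Gm13571 and Inhba. Trib3, a pseudokinase of the stress response, fell at 3 h from 9.28 to 20.1 CPM to 2.66 to 3.95 CPM, and at 20 h was at 248 to 303 CPM activated against 2.83 to 4.72 CPM unactivated. Inhba, which encodes a subunit of activin A, rose at both times, from 1.14 to 1.73 CPM to 60.2 to 85.9 CPM at 3 h and from 0.0910 to 0.284 CPM to 462 to 960 CPM at 20 h.

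Whether the early response needs AhR was tested as the interaction of activation with genotype at 3 h, with Ahr-/- BMMs that were treated in the same way and have their own unactivated libraries. Few differences between the genotypes passed the test. In Ahr-/- BMMs 3702 genes were higher (25.5%) and 4628 lower (31.8%), 57.3% of the genes tested in either direction. Of the genes called higher in Ahr+/+ BMMs, 92.8% were also called higher in Ahr-/- BMMs, and they made up 88.4% of the genes called higher there. For the genes called lower these shares were 89.1% and 90.4%, and 1 gene was called in opposite directions. Median log2 fold changes in Ahr-/- BMMs were 3.04 for the NF-kB list, 4.07 for interferon-stimulated genes and 5.42 for inflammatory cytokines.

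The interaction was called for 2 genes (0.0138%), 1 in each direction (0.00688%), with 867 at an unadjusted p below 0.05, while DESeq2 called 17 and limma on the VST values 7. With a block on the replicate number it was 31 genes, and in edgeR on the compared groups alone 0. Leaving out single libraries gave 1 gene (without unactivated replicate 1, among others) to 9 (without activated replicate 3). The call of Enc1 was lost in 11 of the alternative fits, with an adjusted p of up to 0.086 by edgeR's quasi-likelihood test, and that of Rcsd1 in edgeR on the compared groups alone (adjusted p = 0.020). Enc1, an actin-binding protein, was at 27.8, 39.8, 28.9 and 31.1 CPM activated against 55.5 to 65.4 CPM unactivated in Ahr+/+ BMMs, and at 25.5 to 33.2 against 104 to 122 CPM in Ahr-/- BMMs. Its fitted fall was smaller by 1.01 on the log2 scale in Ahr+/+ BMMs, from a lower unactivated level. Rcsd1, a regulator of actin capping, was at 83.9 to 98.9 against 32.1 to 35.2 CPM in Ahr+/+ BMMs and at 135 to 167 against 29.8 to 33.4 CPM in Ahr-/- BMMs, with a difference of -0.83. Ahr counts in the libraries labelled Ahr-/- were at 12.8 to 13.1 CPM activated and 5.11 to 9.47 CPM unactivated, which counts reads over the whole gene and so does not check the deletion.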

How the data were processed

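RNA of BMMs was sequenced from poly(A)-selected, stranded libraries on 1 flow cell. The authors made the deposited counts by demultiplexing with bcl2fastq 2.19.0.316, trimming, aligning to mm10 with HISAT2 2.1.0 and counting read pairs over exons per gene with htseq-count of HTSeq 0.9.1, in the reverse-stranded setting and without normalization. From these counts the authors also derived the log2 values of the second table, by the variance-stabilizing transformation (VST) of DESeq2, which served 1 alternative only. In the 8 libraries 77.5% to 80.0% of read pairs were assigned to genes, and the summary entries for all other read pairs entered neither the library sizes nor any test.

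Genes were tested in R 4.3.3 with the quasi-likelihood test of edgeR 4.0.16. Low counts were removed by filterByExpr (min.count 10, by group), which kept 14537 of the 55487 genes, and all 64 libraries, normalized with TMM, were fitted with 16 group means (48 residual and 5.06 prior degrees of freedom). Adjusted p-values (Benjamini-Hochberg over all genes tested) below 0.01 were called, and log2 fold changes are given ± SE. This SE was derived from the test, as the size of the fitted change over the square root of its F statistic. For genes near 0 in 1 group it does not cover the dependence of the change on the fit. Over 22 alternative fits the change of Nos2 ranged from 9.34 to 17.6. The contrasts were activated against unactivated at 3 h and its interaction with time and with genotype. Alternatives were DESeq2 1.42.0, limma 3.58.1 on the VST values, other scalings, filters, thresholds, a block on the replicate number, the identifier series as a covariate and leaving out single libraries. CPM are TMM-normalized, whereas list shares and sums of cell type markers use the plain total. Gene lists share 7 genes between them. Genes named are, in each list, the 3 largest called changes with groups that do not overlap, over all genes the 10 largest in each direction with at least 1 CPM, 19 genes chosen by name, and the 5 largest in each direction of each interaction among genes called at 3 h. Other genes are named from the lists or, where said, after their values were seen. The comparison, its members and its lists were chosen with earlier results of these data known. Fitted changes of genes without counts in 1 group depend on the prior count of the fit, so bounds against a floor of 3 counts over the group are given, and bounds and counting intervals cover counting error only. Gene positions are those of GRCm38. On simulated counts with 50 changed genes of each size in this comparison, over 14537 genes, 44% of 1.5-fold, 96% of 2-fold and 100% of 4-fold and 10-fold changes were recovered, with 1 false call. In the simulation few genes changed, as many up as down, and all genes had the same spread. It therefore does not show recovery or false calls under the shift in composition of these data. Values of some genes are not reported here.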

Additional observations from a re-analysis of the deposited data

Results flagged for a closer look

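A library set far from the other 3 of its group was found in 25 of 282 groups of values examined (8.9%), where chance gives about 1 in 20. A library with counts is always flagged when the other 3 of its group have none, so the 8.9% cannot be set against chance. Among unactivated libraries, replicate 4 was highest for Irak2 (62.3 CPM against 57.6 to 58.1), Nos2 (0.759 CPM), Il34 (0.0949 CPM) and Ifnb1 (0.0474 CPM), replicate 3 for Maff (1.73 CPM) and Tmem200b (0.0493 CPM), replicate 1 for Cxcl11 (0.0487 CPM) and replicate 2 for U90926 (0.0251 CPM). Replicate 3 was lowest for Il12b, with 0 CPM. Several of these values rest on a single count.

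Among activated libraries, replicate 2 was highest for Socs3 (1612 CPM), Cycs (136 CPM), Tiparp (461 CPM), D930048N14Rik (0.0566 CPM) and D930019O06Rik (0.0566 CPM). Replicate 3 was lowest for Cish (63.2 CPM), Ahrr (0.346 CPM) and Edn1 (151 CPM) and highest for Frat1 (0.0692 CPM) and Rcsd1 (98.9 CPM). Replicate 4 was highest for Neat1 (107 CPM) and AC122442.1 (0.0647 CPM). Of the list shares, activated replicate 3 was highest for the bacterial sensors (0.995% of counts) and the TLR adapters (0.337%), and unactivated replicate 3 was highest for the NF-kB genes (0.195%) and lowest for the cell cycle (0.292%). Activated replicate 3 held 7 of the 25 values.

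The activation response differed between 3 h and 20 h for 3101 genes toward higher and 3849 toward lower values at 3 h. By fitted change, the largest differences in log2 fold change, 3 h minus 20 h, were 10.04 for Ifi202b, 9.75 for Il18rap, 8.97 for Tmem200b, 8.89 for Gprc5c, 8.69 for Nptx1, -8.28 for Trib3, -7.85 for B430319F04Rik, -7.14 for D930019O06Rik, -6.92 for Gm13571 and -6.70 for Inhba. The values of Ifi202b and B430319F04Rik depend on the prior count, since unactivated libraries of Ifi202b and activated ones of B430319F04Rik had no count at 3 h, where the changes were at least 71.9-fold higher and at least 5.27-fold lower. Without unactivated replicate 4 at 20 h, Ifi202b and Tmem200b were no longer called different (adjusted p of 1.00 and 0.96 by edgeR's quasi-likelihood test). Between genotypes it differed for 1 gene upward, Enc1 with 1.01, and 1 downward, Rcsd1 with -0.83, both as Ahr+/+ minus Ahr-/-. Gprc5c was at 7.48 to 10.9 against 3.98 to 5.47 CPM at 3 h, and at 0 to 0.0943 against 9.58 to 16.8 CPM at 20 h. Nptx1 was at 5.97 to 8.43 against 16.1 to 26.7 CPM at 3 h, and at 0 to 0.0747 against 48.0 to 57.8 CPM at 20 h.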

How the results depend on the processing

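Scaling to total counts, chosen after seeing the data, gave 1806 genes higher and 8598 lower on activation, and turned Cox5a to -0.020 and Uqcrfs1 to -0.14. A log2 fold change above 1 as a further threshold left 2039 higher and 2748 lower, 2318 genes with lower values at 3 h than at 20 h, and 1 gene different by genotype. The genotype count was 17 by DESeq2, 7 by limma, 0 in edgeR on the groups compared alone, 5 at an adjusted p below 0.05 and 1 with the identifier series as a covariate. Over the other fits, activation counts ranged from 2808 to 4279 higher and 3502 to 5490 lower. Replicate numbers could not be shown to pair libraries, since deviations of same-numbered libraries correlated with r of 0.071, 0.117, 0.126 and 0.035. Every activated library correlated best with the unactivated library of its own number, but unactivated replicate 4 did so with activated replicate 3 (0.037). A block on the number within genotype gave 3989 higher and 5120 lower on activation, 3629 and 4436 by time and 31 genes by genotype, and on the 8 libraries alone 4072 and 4290. Without single libraries, counts were 3338 to 3634 higher and 4160 to 4539 lower on activation, 2888 to 3256 and 3312 to 3770 by time, and 1 by genotype without unactivated replicate 1 to 9 without activated replicate 3. Among list shares, 14 to 16 were higher and 8 lower. Of the named genes, Csf2, Cox5a, Uqcrfs1, Atp6v0d2, Tlr4, Csf1r, Ahr, Gprc5c, Gm13571, Enc1, Rcsd1, Ifi202b and Tmem200b lost a call in some setting. The causes were not tested. Depth limits genes with a few counts in 1 group, whose ratios have counting intervals of more than 10-fold, and changes of 1.5-fold, of which 44% were recovered in simulation.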
